A study of Mus musculus with 2 samples.

Results

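The myeloid C-type lectin receptors are cell surface proteins with which monocytes, macrophages, neutrophils and dendritic cells recognise sugars and lipids of microbes and material from damaged cells. The 9 genes described here (Clec4e, Clec4d, Clec4n, Clec7a, Clec4a1, Clec4a2, Clec4a3, Clec12a and Clec5a) were taken by gene name from 37074 gene names on the array, and every one of them had a probe. Expression was measured on 1-colour Agilent microarrays in spleen monocytes of ICR mice, an outbred stock, with 1 array per group. The groups were 5/6Nx, mice that had undergone a 5/6 nephrectomy, an operation that removes most of the kidney tissue and models chronic kidney disease, and sham, mice that had undergone a sham operation. The spleens of both groups were taken 8 weeks after the operation, and monocytes were isolated on a flow cytometer after CD11b and Ly6C staining. The number, age and sex of the mice behind each array are not given in the sources used here. With 1 array per group no difference has a replicate check and no p-value was computed, so operation, animals, sort and array cannot be told apart. In bulk RNA, moreover, more cells of a type and more RNA per cell cannot be told apart.

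Most of these receptors work through a shared signalling route. Mincle (Clec4e), Clec4d and Dectin-2 (Clec4n) pair with the Fc receptor gamma chain Fcer1g, Clec5a pairs with the adaptors Tyrobp and Hcst, and Dectin-1 (Clec7a) carries its own activating motif. All of these recruit the kinase Syk, and for Mincle, Dectin-1 and Dectin-2 the adaptor CARD9 then assembles with BCL10 and MALT1 to activate NF-kappaB and cytokine genes. Clec12a and Clec4a2 carry inhibitory motifs instead and recruit the phosphatases encoded by Ptpn6 and Ptpn11.

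Of the 9 receptors 6 were higher in 5/6Nx monocytes than in sham monocytes by 2-fold or more, 2 were lower by 2-fold or more, and Clec4a2 lay within 2-fold. Clec4e and Clec12a stood highest, 37.7-fold and 37.3-fold above sham, whereas Clec4d, the direct neighbour of Clec4e in the genome, was 3.25-fold lower on the 5/6Nx array. The median difference of the 9 receptors was 1.98 in log2 units, against -0.10 over the 22301 genes measured on both arrays. By the same 2-fold limit 11.8% of those genes were higher and 9.69% lower (21.5% in either direction). Upward differences made up 54.9% of them, a share that was 82.1% with scaling on the spike-in controls, 63.3% with loess scaling, 41.4% with median scaling and 40.6% among probes brighter than the median probe. The median of all genes was 0.32 with spike-in scaling and -0.25 with median scaling, and the 6 higher receptors stayed past 2-fold in both.

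Values are given as processed intensity, the background-subtracted brightness of a spot, with the error that the scanner software assigned to that spot. This error covers the spot alone, not sorting, labelling or mice. For bright spots nearly all of it is a set term of the software's error model, 0.1 of the intensity, and not a measured spread. Between spots of the 283 probes printed 8 or more times and well above background, the median standard deviation of the difference was 0.037 log2 units. Differences are log2 values, 5/6Nx minus sham, after each array was scaled to the 75th percentile of its non-control spots, an intensity of 547.5 on the 5/6Nx array and 442.1 on the sham array. The software errors of both arrays together amounted to 0.20 to 0.26 log2 units for the difference of a receptor. All 12 probes of the 9 receptors were called well above background on both arrays, none was saturated or had an outlier flag, and each was printed once. No probe of a receptor shared a run of 20 bases with any other probe on the array, and the longest run common to probes of different receptors was 9 bases, between Clec4a2 and Clec4a3. Probe positions follow the array files (mouse build mm9), and their place in exons or untranslated regions was not looked up.

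**Figure D1:**
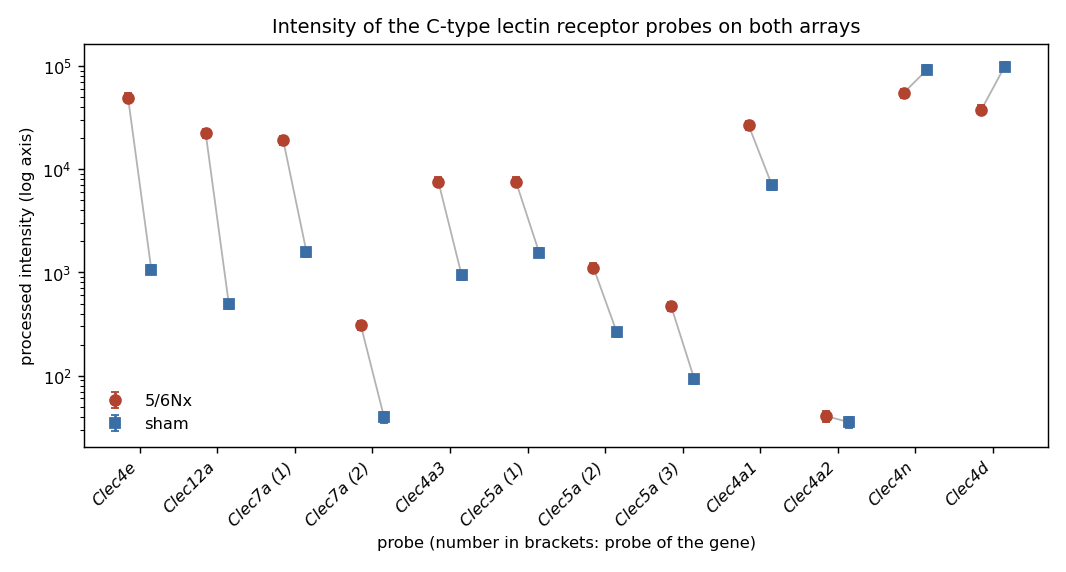
Processed intensity (log axis) of the 12 probes of the 9 receptors on the 5/6Nx array (circles, left of each pair) and the sham array (squares, right), with the software's error of each spot as bars, mostly smaller than the symbols. Clec4e read 49620 on the 5/6Nx array and 1063 on the sham array, while Clec4d read 37894 and 99372 on these arrays.

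Among the receptors that pair with Fcer1g, Clec4e encodes Mincle, which binds mycobacterial cord factor and the nuclear protein SAP130 released by dead cells. Its probe (chromosome 6, 123232878 to 123232937, mm9) read 49620 ± 4962 (software error) on the 5/6Nx array, against 1063 ± 106 on the sham array. The difference of 5.24 was exceeded by 192 of the 22301 genes, or 0.861%. Clec4d encodes a receptor, also called MCL or Dectin-3, that pairs with Mincle and is needed for its full surface expression. The Clec4d probe (chromosome 6, 123224788 to 123224847) read 37894 ± 3789 on the 5/6Nx array, against 99372 ± 9937 on the sham array. Its difference was -1.70, and 703 genes (3.15%) had a difference further below 0. The partners thus differed in opposite directions.

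Clec4n encodes Dectin-2, the receptor for fungal alpha-mannans. Its probe (chromosome 6, 123196969 to 123197028) read 55284 ± 5528 on the 5/6Nx array, against 92742 ± 9274 on the sham array. The difference of -1.05 lay just past the 2-fold limit, and it lay inside that limit with quantile scaling (-0.77), loess scaling (-0.67), spike-in scaling (-0.63) and in the authors' deposited table (-0.87). Clec4n and Clec4d therefore shared the sign of their difference in every setting, but of these 2 genes only Clec4d was past 2-fold in all 10 alternatives.

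Clec7a encodes Dectin-1, the receptor for fungal beta-glucans. Its brighter probe (chromosome 6, 129411739 to 129411798) read 19195 ± 1920 on the 5/6Nx array, against 1586 ± 159 on the sham array, a difference of 3.29 or 9.77-fold. A dimmer probe of the gene, which spans 1645 bases of the genome with its 60 bases and so crosses a splice junction, read 308.8 ± 31.1 on the 5/6Nx array, against 39.6 ± 5.1 on the sham array, a difference of 2.65. Both probes were thus higher on the 5/6Nx array, and 447 genes had a larger difference than the brighter one.

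Clec5a, also called MDL-1, is a receptor of monocytes and neutrophils that binds dengue virus and signals through Tyrobp. Its brightest probe (chromosome 6, 40527017 to 40527076) read 7615 ± 761 on the 5/6Nx array, against 1558 ± 156 on the sham array, a difference of 1.98 or 3.95-fold. The other 2 probes of the gene differed by 1.77 and 2.04, the second of them across a splice junction (a genome span of 2915 bases). The 3 probes lay within 0.28 log2 units of each other although their intensities on the sham array ran from 92.5 to 1558. The junction-crossing probes of both genes are shown because they can pair over their full length only with spliced RNA. They are written in lower case.
Clec7a, chr6:129420986-129422630 (mm9, minus strand): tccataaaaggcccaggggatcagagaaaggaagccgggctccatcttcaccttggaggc
Clec5a, chr6:40532266-40535180 (mm9, minus strand): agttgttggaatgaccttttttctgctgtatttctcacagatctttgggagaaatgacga

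Of the 2 receptors with inhibitory motifs, Clec12a recognises uric acid crystals of dying cells and restrains inflammation. Its probe (chromosome 6, 129314367 to 129314426) read 22599 ± 2260 on the 5/6Nx array, against 489.9 ± 49.1 on the sham array. The difference of 5.22 was 0.02 below that of Clec4e, within their software error of 0.29, so these receptors could not be ranked. Clec4a2, the dendritic cell immunoreceptor DCIR1, had a single dim probe (chromosome 6, 123093890 to 123093949) that read 40.4 ± 5.0 on the 5/6Nx array, against 35.3 ± 4.5 on the sham array. The lowest intensity called well above background was 13.7 on the 5/6Nx array and 13.05 on the sham array. The Clec4a2 difference of -0.11 was smaller than its software error of 0.26 and was 0.31 with spike-in scaling, so no direction could be given.

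Clec4a1 and Clec4a3 are relatives of Clec4a2 in the same gene cluster, also named DCIR4 and DCIR3. The Clec4a3 probe (chromosome 6, 122919637 to 122919696) read 7615 ± 762 on the 5/6Nx array, against 944.5 ± 94.5 on the sham array, a difference of 2.70 or 6.51-fold. The Clec4a1 probe (chromosome 6, 122884578 to 122884637) read 26743 ± 2674 on the 5/6Nx array, against 7051 ± 705 on the sham array, a difference of 1.61 or 3.06-fold. Both were higher on the 5/6Nx array in all 10 alternatives, by 2.55 to 3.13 for Clec4a3 and by 1.47 to 2.04 for Clec4a1.

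**Figure D2:**
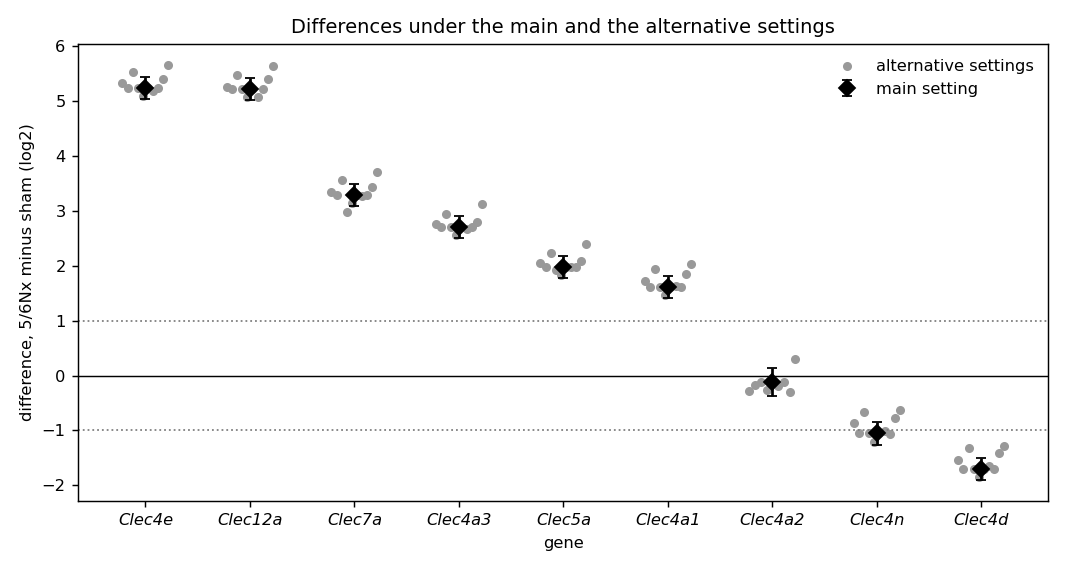
Difference, 5/6Nx minus sham (log2), of each receptor in the main setting (diamonds, bars give the software's error) and in the alternative settings (grey points), with dotted lines at 2-fold. The 6 higher receptors lie above the upper line in every setting, Clec4d lies below the lower line in every setting, and Clec4n crosses it.

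In the order of their differences, Clec4e and Clec12a were followed by Clec7a, 1.93 below Clec12a, and then by Clec4a3, Clec5a and Clec4a1. The steps between these were 0.59, 0.72 and 0.37, beside a software error of 0.29 that covers the spots alone, so this order has no replicate check. The second Clec7a probe, at 2.65, lay below Clec4a3, at 2.70. With quantile scaling Clec5a and Clec4a1 came to 2.09 and 1.85, closer than that error. A gap of 1.73 separated Clec4a1 from Clec4a2, and Clec4n and Clec4d closed the order. At a limit of 4-fold, 4 receptors were higher, where 4.12% of all measured genes were, and none was lower, where 2.18% were.

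**Figure D3:**
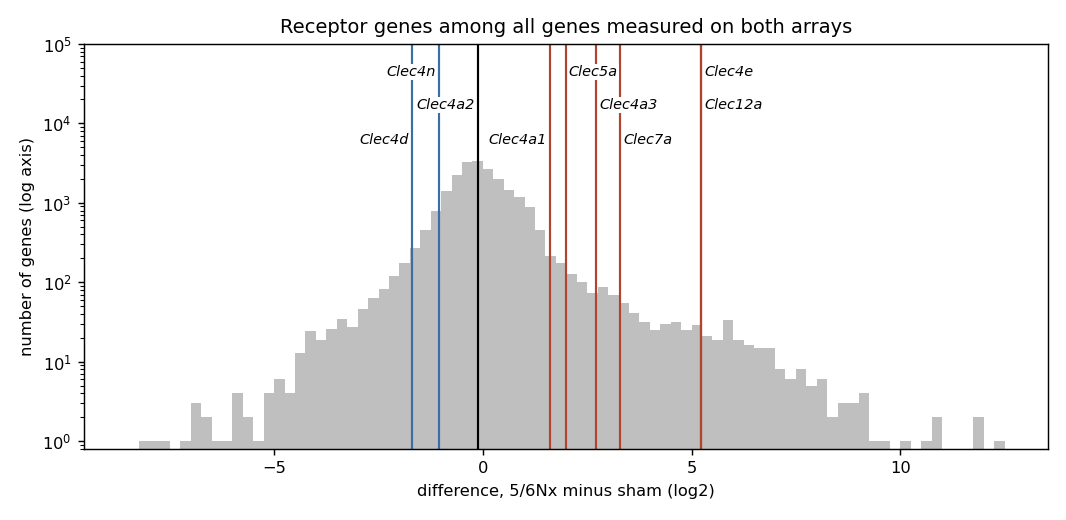
Number of genes (log axis) by their difference, 5/6Nx minus sham (log2), over the 22301 genes measured on both arrays, with a vertical line for each receptor. Lines are red above 2-fold, blue below 2-fold lower and black between, and Clec4e and Clec12a fall together at 5.24 and 5.22 in the thin right tail.

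All 9 genes lie on chromosome 6, 8 of them in 2 clusters. The Dectin-2 cluster spans 348.4 kb between the outer probes and runs in the order Clec4a1, Clec4a3, Clec4a2, Clec4n, Clec4d, Clec4e. The first pair, Clec4a1 and Clec4a3, was higher on the 5/6Nx array, the genes toward the other end were near 0 or lower, and Clec4e at the very end was again higher. Clec4d and Clec4e, whose probes lie 8.09 kb apart on opposite strands, differed from each other by 6.94 log2 units. That gap does not depend on any scaling by a constant, and it ran from 6.81 to 6.94 over the 10 alternatives. Clec4d and Clec4n, 27.8 kb apart on the same strand, differed from each other by 0.64.

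Other genes of this cluster with array probes were read in the same way. Clec4a4, the dendritic cell receptor DCIR2, read 102.7 on the 5/6Nx array and 33.2 on the sham array, a difference of 1.32 that was 0.50 with normexp background correction. Clec4b1, which sits between Clec4a4 and Clec4a2, had 2 probes that differed by -1.12 and -1.20, and its difference was -0.70 with spike-in scaling. None of the 3 probes of Clec4b2 was well above background on either array. The cluster thus held genes of both signs side by side.

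In the Dectin-1 cluster Clec12a and Clec7a, 97.4 kb apart, were both higher on the 5/6Nx array. Between them Clec1b, the platelet and myeloid receptor CLEC-2, read 1031 on the 5/6Nx array and 69.3 on the sham array, a difference of 3.59 that was 2.64 with normexp. Clec9a, the receptor of cross-presenting dendritic cells for actin of dead cells, was above background in 5/6Nx alone, at 30.6 on its brighter probe, with a bound of at least 1.93-fold higher. Clec12b and Clec1a were well above background on neither array. Both members and Clec1b lay on the same side in this cluster, read from the Clec12a to the Clec7a probe, in contrast to the mixed signs of the other one. Olr1, next to Clec7a but outside that stretch, was dim and differed by -0.71.

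**Figure D4:**
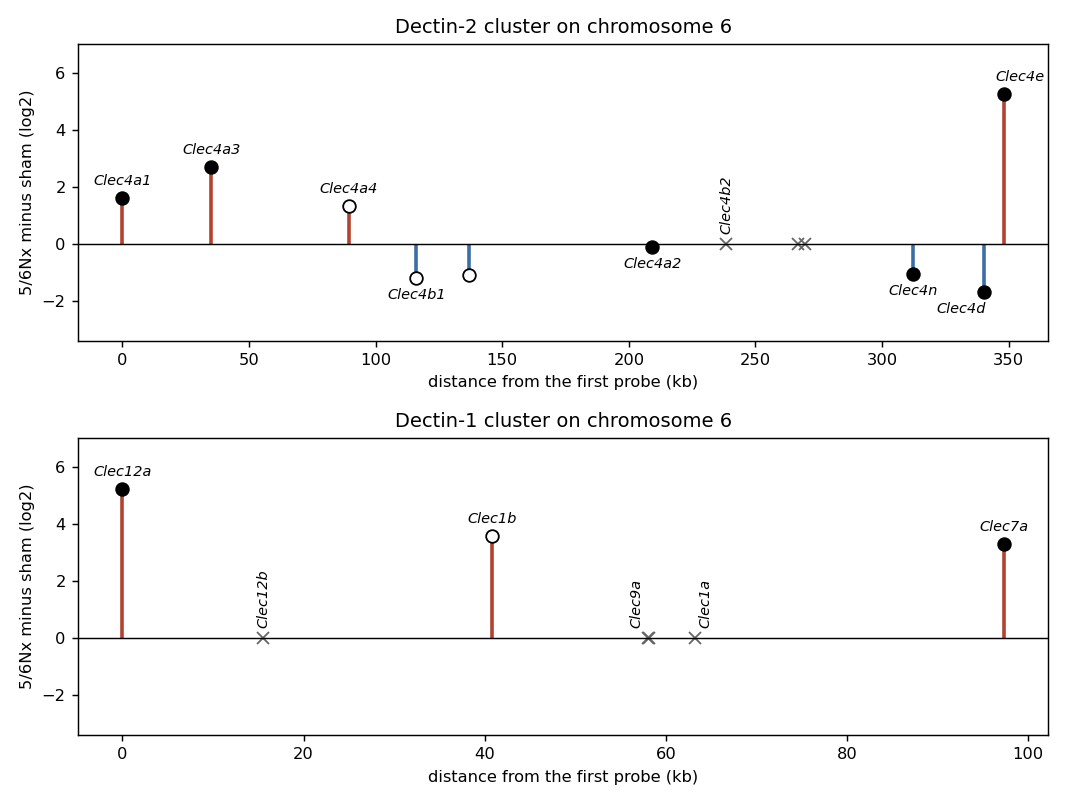
Difference, 5/6Nx minus sham (log2), of the array probes along the Dectin-2 cluster (upper panel) and the Dectin-1 cluster (lower panel), by distance from the first probe in kb. Filled points are the 8 receptors that lie there, open points are other genes, and crosses on the 0 line are probes not well above background on both arrays, so that they stand for no value. Clec4d at -1.70 and Clec4e at 5.24 lie at the right end of the upper panel.

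Promoter windows of 250 bases before to 50 after the transcript start were read from RefSeq, build GRCm38.p6, which held 8 of the 9 genes and not Clec4n. Matches, on both strands, were sought to TTGCNNAA (C/EBP), GGG and TTTCC with 2 bases between (kappaB), GAAA and GAAA with 2 bases between (interferon-stimulated response element), GAGGAAGT (PU.1) and TGANTCA (AP-1), which 10.8%, 1.63%, 3.44%, 3.20% and 7.81% of 32851 promoter windows held. The windows of Clec4e, Clec12a and Clec4d are shown because these genes had the largest differences upward and downward, with the matches in capitals. The C/EBP motif was found in Clec4e, 66 bases before the start, and in Clec12a, 140 bases before it. Clec12a also held an AP-1 motif, 213 bases before its start. In Clec4d the one match was to the interferon motif, read on the other strand, at the start itself. Clec4a2 held an AP-1 motif after its start, and Clec7a, Clec4a1, Clec4a3 and Clec5a held none of the 5. These matches describe letters and not bound sites.
Clec4e, chr6:123289822-123290121 (GRCm38.p6, minus strand): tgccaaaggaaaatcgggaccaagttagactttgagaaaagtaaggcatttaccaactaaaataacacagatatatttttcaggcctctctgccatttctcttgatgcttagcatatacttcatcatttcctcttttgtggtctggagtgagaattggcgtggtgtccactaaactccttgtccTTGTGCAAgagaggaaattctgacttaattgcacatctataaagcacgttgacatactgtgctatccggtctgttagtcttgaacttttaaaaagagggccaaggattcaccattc
Clec12a, chr6:129349994-129350293 (GRCm38.p6, plus strand): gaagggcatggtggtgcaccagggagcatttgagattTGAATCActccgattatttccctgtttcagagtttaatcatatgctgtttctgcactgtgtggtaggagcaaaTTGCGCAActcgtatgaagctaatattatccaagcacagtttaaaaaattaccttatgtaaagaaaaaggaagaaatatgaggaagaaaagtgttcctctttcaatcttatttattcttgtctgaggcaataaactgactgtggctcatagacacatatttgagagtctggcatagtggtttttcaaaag
Clec4d, chr6:123261857-123262156 (GRCm38.p6, plus strand): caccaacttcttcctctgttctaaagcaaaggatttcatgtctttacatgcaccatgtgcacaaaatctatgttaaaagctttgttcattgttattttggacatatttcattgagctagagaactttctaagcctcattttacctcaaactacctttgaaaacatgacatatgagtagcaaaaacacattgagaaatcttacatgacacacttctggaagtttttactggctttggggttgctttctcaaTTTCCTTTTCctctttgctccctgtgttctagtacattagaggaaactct

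All 15 adaptors and signalling genes of these receptors had values on both arrays, and 3 were higher by 2-fold or more, 2 lower and 10 within 2-fold, with a median of 0.06. Of all 22301 genes measured on both arrays, 11.8% were higher and 9.69% lower by the same limit. Malt1, the paracaspase of the CARD9 complex, read 15307 on the 5/6Nx array and 542.1 on the sham array, a difference of 4.51, and its 4 probes ran from 3.20 to 4.51. Ptpn6, the phosphatase SHP-1, differed by 1.59. Card9 itself was dim, at 62.7 on the 5/6Nx array and 152.3 on the sham array, and differed by -1.59. The other gene lower was Inpp5d, the lipid phosphatase SHIP1, at -1.13, which was -0.71 with spike-in scaling.

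The shared adaptors and the kinase lay within 2-fold in the main setting, but the adaptors crossed that limit under some alternatives. Fcer1g read 116665 on the 5/6Nx array and 51731 on the sham array, a difference of 0.86 that was 1.29 with spike-in scaling and past 2-fold in 4 of 10 alternatives. Hcst read 2331 on the 5/6Nx array and 1030 on the sham array, a difference of 0.87 that passed 2-fold in 2 of 10 alternatives. Tyrobp read 32832 on the 5/6Nx array and 49479 on the sham array, a difference of -0.90 that was -1.05 with median scaling. For Syk and Ptpn11 the differences, 0.14 and 0.06, turned sign with median scaling. Clec4e thus differed by 5.24 where its adaptor Fcer1g differed by 0.86. The count of signalling genes higher was 6 with loess or spike-in scaling and 5 with quantile scaling, and the median of the list was -0.09 with median scaling.

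Of 21 other genes listed with the C-type lectins, 12 were measured on both arrays, 5 of them higher and 3 lower, with a median of 0.44. Over all genes measured on both arrays 11.8% were higher by 2-fold or more and 9.69% lower. Ly75, the endocytic receptor DEC-205, read 905.5 on the 5/6Nx array and 17.4 on the sham array, a difference of 5.39 that was 3.23 with normexp. Clec2d, a ligand of an NK cell receptor, differed by 5.13, or 3.95 with normexp. Clec10a, a galactose lectin of macrophages, read 1601 on the 5/6Nx array and 22415 on the sham array, a difference of -4.12, and the mannose receptor Mrc1 differed by -2.44, or -1.74 with normexp. Mgl2, the close relative of Clec10a, differed by 1.21. Cd209a was above background in sham alone, and so lower in 5/6Nx by at least 2.67-fold, while 6 of the 21 were well above background on neither. The median of this list was positive in every setting that kept the dimmer genes, from 0.20 with normexp to 0.86 with spike-in scaling. Over the 5 genes brighter than the median probe, a smaller set, it was -0.11, the value of Clec16a. Single genes of the list went both ways.

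Cytokines and factors that Syk and CARD9 signalling can induce, though other pathways induce them as well, were read next. Both arrays measured 8 of the 13 genes, of which 6 were higher by 2-fold or more and none lower, with a median of 3.02. Among all genes measured on both arrays 11.8% were higher and 9.69% lower. Of the 13, a further 4 were above background in 5/6Nx alone, the array with more spots well above background (67.0% against 63.0% in sham). Il1b differed by 7.57 on its brightest probe, with its 3 probes running from 4.75 to 7.57, and by 6.71 with normexp. Egr2 differed by 4.84 (4.20 with normexp), Tnf by 4.64 and Ptgs2, the inducible cyclooxygenase, by 3.75. Il6 read 6227 on the 5/6Nx array and 2.77 on the sham array, at least 394-fold higher. With normexp 4 of the 8 were past 2-fold, with a median of 2.10, and among the 3 genes brighter than the median probe 1 was, with a median of 0.67. Among 4 proteins reported as ligands, Sap130 for Mincle and vimentin (Vim), galectin-9 (Lgals9) and annexin A1 (Anxa1) for Dectin-1, Lgals9 differed by 1.37 and Anxa1 by -2.37. Sap130 and Vim stayed within 2-fold, at -0.30 and -0.49, and Sap130 was 0.13 with spike-in scaling.

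**Figure D5:**
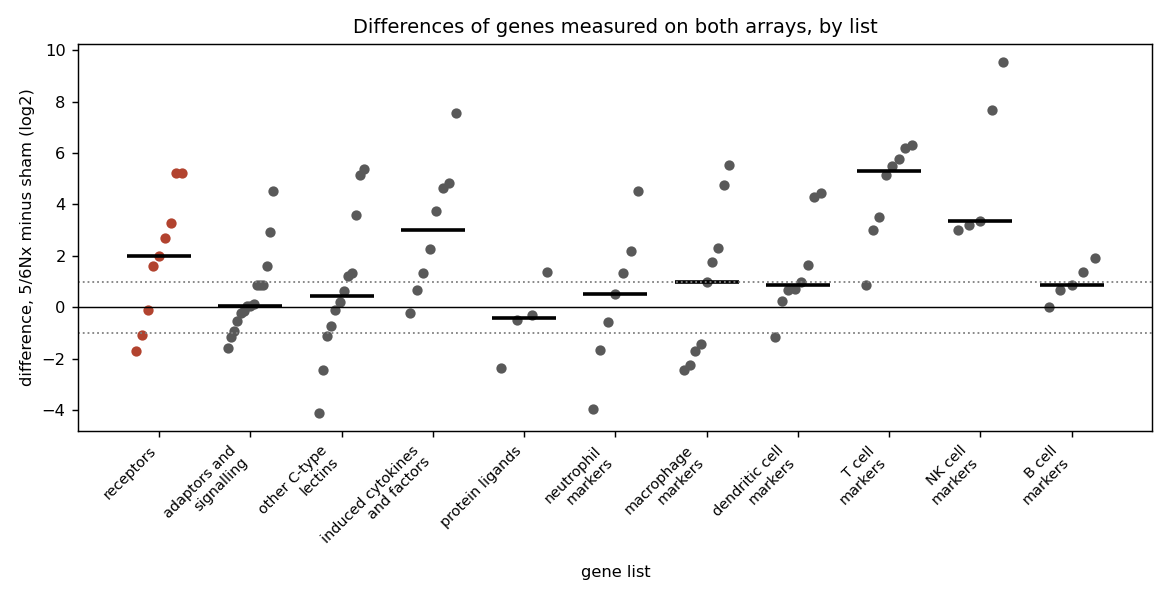
Difference, 5/6Nx minus sham (log2), of each gene measured on both arrays, for the receptors (red), their pathway lists and the marker lists of other cell types, with a bar at each median and dotted lines at 2-fold. The receptors have a median of 1.98, the adaptors and signalling genes 0.06, and the T cell markers 5.32.

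The arrays differed in ways beyond these receptors. The share of spots called well above background, controls aside, was 67.0% for 5/6Nx and 63.0% for sham. For genes above background on 1 array alone, no share over all genes is given beside the counts. The sort antigen CD11b (Itgam) differed by -0.35, and Ly6c1 and Ly6c2, whose probes may read both genes, by 1.98 each. The counts of markers below stand beside 11.8% of all measured genes higher by 2-fold or more and 9.69% lower. T cell markers were higher in 7 of 8 measured genes, their summed level (in units of the 75th percentile) being 56.7 on the 5/6Nx array and 3.30 on the sham array. Without Lck these sums were 40.3 and 2.94. All 5 measured NK cell markers were higher, with sums of 72.7 on the 5/6Nx array and 0.806 on the sham array, or 23.8 and 0.741 on these arrays without Gzma. A further 4 NK cell markers and the T cell gene Cd8a were above background in 5/6Nx alone. B cell markers had 2 of 5 higher, with sums of 4.09 on the 5/6Nx array and 1.81 on the sham array, and 3 more were above background in 5/6Nx alone. Clec2d and Ly75 are also expressed by lymphocytes, so that their differences stand beside these.

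Markers of other myeloid cells, which express the receptors themselves, went both ways among the genes measured on both arrays. Over all such genes 11.8% were higher by 2-fold or more and 9.69% lower. Above background in 5/6Nx alone were 2 neutrophil, 2 macrophage, 1 dendritic cell and 2 non-classical monocyte markers more. In sham alone 0 markers of these lists were above background. Neutrophil markers had 3 of 7 higher and 2 lower, and their summed level was 12.3 on the 5/6Nx array and 33.2 on the sham array. Without Mmp8, a neutrophil collagenase that differed by -3.97, the sums were 10.9 on the 5/6Nx array and 11.7 on the sham array. Ly6g differed by 4.53 and Elane by -1.66, and Ngp, Ltf and Retnlg were above background on neither array. Macrophage markers had 4 of 9 higher and 4 lower, with sums of 156.4 on the 5/6Nx array and 149.8 on the sham array, or 119.2 and 50.2 on these arrays without Cd68. Conventional dendritic cell markers had 4 of 8 higher and 1 lower, with sums of 32.4 on the 5/6Nx array and 24.95 on the sham array, or 6.65 and 3.13 on these arrays without Irf8, and Xcr1 was above background on neither. Monocyte markers were also divided, with 6 of 10 classical markers higher and 2 lower, and 4 of 8 non-classical markers higher and 2 lower. The classical sum was 941.7 on the 5/6Nx array and 390.9 on the sham array, but 167.0 and 194.7 on these arrays without the sort antigens Ly6c1 and Ly6c2. The non-classical sum was 33.0 on the 5/6Nx array and 59.9 on the sham array, but 30.8 and 18.3 on these arrays without Cx3cr1. The direction of the non-classical sum thus rested on Cx3cr1. That of the full classical sum rested on Ly6c1 and Ly6c2. Of the 194.7 left on the sham array without them, Fn1 alone made up 164.7. On the 5/6Nx array Fn1 made up 0.56 of the 167.0 left, so Fn1 set the direction of the sum without the sort antigens. The part of these cell types in the differences of the receptors was not tested.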

How the data were processed

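Total RNA of sorted spleen monocytes was amplified, labelled with Cy3 and hybridised to 1 Agilent array per group, per the labels' protocols. The deposited array files give each spot a linear intensity, and per the file headers they come from Agilent Feature Extraction 10.7.1.1 (9.5.1.1 per the submitters' processing notes), with background subtraction, spatial and multiplicative detrending and surrogate values for low spots, and no scaling between arrays. The authors' value table also holds deposited intensity values, of 52145 probes, linear and uncentred (medians 48.2 for 5/6Nx and 47.5 for sham), with a normalization not given in the sources used here. Both arrays share a slide and a scan, so no batch could be fitted.

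Each processed intensity was divided by the 75th percentile of its array (59305 spots, controls left out) and taken to log2. Outlier-flagged spots (70) were left out, spots of a probe were averaged, and the brightest probe well above background on both arrays stood for a gene name. A gene above background on 1 array has a bound against the lowest value called well above background on the other array, or the dim probe's reading if that is higher. Counts use a 2-fold limit and no test. All 9 members are named; in each list the 4 measured genes with the largest differences, the largest bound, the shared adaptors and phosphatases, and genes lying between members are named, with Inpp5d, Mrc1 and Mgl2 added after their values were seen. One gene that this rule names is not reported here. Members and lists were chosen with earlier results of these data known. Alternatives used limma 3.58.1 in R 4.3.3 (normexp with an offset of 50, quantile and cyclic loess scaling) and pandas 2.3.3. The steps were tested on simulated data. The number of arrays limits the precision.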

Additional observations from a re-analysis of the deposited data

How the results depend on the processing

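No paired analysis was possible because each group has 1 array, and for the same reason no array could be left out. The 6 higher receptors numbered 6 in all 10 alternatives for the differences and at 1.5-fold, and 4 at 4-fold. The lower receptors numbered 2 in the main setting and 1 with quantile, loess and spike-in scaling and in the authors' deposited table, where Clec4n came inside 2-fold, and 0 at 4-fold. The median difference was 2.24 with loess scaling, 2.40 with spike-in scaling and 2.34 over the 8 receptors brighter than the median probe, where Clec4a2 drops out, and 1.83 to 2.09 in the other alternatives. Of the values of single receptors under alternatives, 68 moved by less than the software's error, 20 by more, and 1 reversed, Clec4a2 at 0.31 with spike-in scaling. The probes of the receptors other than Clec4a2 were bright enough that normexp moved none of their gene values by more than the software's error. Over all genes 2636 were higher and 2162 lower by 2-fold or more in the main setting, 1437 and 1450 with normexp, 4772 and 1043 with spike-in scaling, 754 and 1103 among probes brighter than the median probe, and 5336 and 3792 without a filter on dim probes. Signal over background limits Clec4a2, Card9, Ly75 and Clec4a4.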

Other observations

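Past Clec7a, within 250 kb on chromosome 6, the array also reads genes of the NK gene complex, which encode lectin-like receptors of NK cells. This window was chosen after the values were seen. Klrk1, the activating receptor NKG2D, read 2773 on the 5/6Nx array and 2.84 on the sham array, at least 175-fold higher, and Klrd1, the receptor chain CD94, was at least 105-fold higher. Klre1, Klrc3 and Klrc1 were likewise above background in 5/6Nx alone, at least 13.1-fold, 8.79-fold and 4.36-fold higher. Gabarapl1, an autophagy gene that lies between Clec7a and these receptors, read 6789 on the 5/6Nx array and 23928 on the sham array, a difference of -2.13. Olr1, the oxidized LDL receptor next to Clec7a, read 32.2 on the 5/6Nx array and 42.4 on the sham array, a difference of -0.71. The stretch from Clec12a to Klrc1 thus held genes higher and lower on the 5/6Nx array. The 5 NK cell markers measured on both arrays were higher on the 5/6Nx array too. Klre1 is itself among the 4 further NK cell markers above background in 5/6Nx alone.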
